A study of Homo sapiens with 8 samples.

Results

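The genes described here encode P-TEFb, its 7SK inhibitors, and other kinases and factors that act on RNA polymerase II. They are 10 genes of the 19035 gene symbols in the expression table, chosen by name: CDK9, CCNT1 and CCNT2 (P-TEFb), HEXIM1 and LARP7 (the 7SK particle), SUPT5H (the elongation factor SPT5), CDK7 and CCNH (TFIIH), and CDK8 and CCNC (the Mediator kinase module). All 10 were found and passed the filter on low values, a mean of at least 1 TPM over the libraries (TPM is transcript abundance per length, scaled to a common total). Transcripts were measured in KPL-1, an established human breast cancer cell line, carrying a doxycycline-inducible Cas9 (iCas9), on day 7 of doxycycline. The tested cells carried a guide against SETD1A (sgSETD1A, labelled SETD1A knockout, 3 libraries) and the control cells an empty guide vector (sgEmpty, labelled WT, 3 libraries). Both groups thus carried Cas9 and were exposed to doxycycline. The labels do not say how many guides or clones were used, and whether replicates came from separate cultures is not stated either, so a p-value here reflects the library-to-library spread, possibly technical. The study concerns SETD1A, a histone H3 lysine 4 methyltransferase, in breast cancer cell proliferation, and its title names cyclin K, the partner of 2 further kinases of this kind, CDK12 and CDK13.

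RNA polymerase II begins transcription with its C-terminal domain (CTD) largely unphosphorylated. CDK7, within the initiation factor TFIIH, phosphorylates the CTD early, and the polymerase then often pauses shortly after the start under the factors DSIF and NELF. P-TEFb, made of the kinase CDK9 and a T-type cyclin, releases it by phosphorylating DSIF, NELF and the CTD. Much of the P-TEFb in a cell is held inactive on the 7SK small nuclear RNA by HEXIM1 or HEXIM2, while LARP7 and the capping enzyme MEPCE bind and stabilise that RNA. The 7SK RNA itself has no poly(A) tail, and its level was not analysed here.

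In sgSETD1A cells transcripts of HEXIM1 and LARP7, the 7SK proteins in the set, changed, and none of the P-TEFb genes passed the test. HEXIM1, the inhibitor, rose by 0.26 log2, and LARP7, the 7SK-binding protein, fell by 0.43 log2. These were the 2 members called in every alternative processing tried. CCNH and CCNC, cyclins of TFIIH and of Mediator, rose by smaller amounts that depended on the scaling and on single libraries. No other member passed the test with TPM as deposited, and CDK9 was called lower after median-ratio rescaling alone. Among all tested genes 41.5% were called, 28.0% higher and 13.5% lower. The members' calls, 3 higher and 1 lower of 10, are near those shares.

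The sequences shown are those upstream of HEXIM1 and LARP7, the members whose transcripts differed most, so that the different make-up of their promoters can be seen. Each is the 250 bases before a RefSeq start (GRCh38.p14, plus strand), 5′ to 3′. Capitals mark the motifs searched on both strands, TATAAA (the TATA box), CCAAT and GGGCGG (the GC box), which do not overlap one another here. HEXIM1 has 1 annotated start, with its window at chr17:45148225-45148474. LARP7 has 2, with windows at chr4:112636893-112637142 (upstream) and chr4:112637252-112637501 (downstream), and the libraries do not show which start was used.
HEXIM1: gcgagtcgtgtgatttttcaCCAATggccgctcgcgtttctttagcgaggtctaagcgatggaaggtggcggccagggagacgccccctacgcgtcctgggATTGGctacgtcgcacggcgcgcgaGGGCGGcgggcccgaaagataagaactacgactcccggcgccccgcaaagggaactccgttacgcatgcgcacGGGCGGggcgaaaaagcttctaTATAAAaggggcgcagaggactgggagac
LARP7 upstream: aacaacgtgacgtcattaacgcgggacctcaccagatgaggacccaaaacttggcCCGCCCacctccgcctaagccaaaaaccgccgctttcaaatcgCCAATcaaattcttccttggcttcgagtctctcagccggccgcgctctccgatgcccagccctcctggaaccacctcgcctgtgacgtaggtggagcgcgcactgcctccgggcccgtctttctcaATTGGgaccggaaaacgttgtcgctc
LARP7 downstream: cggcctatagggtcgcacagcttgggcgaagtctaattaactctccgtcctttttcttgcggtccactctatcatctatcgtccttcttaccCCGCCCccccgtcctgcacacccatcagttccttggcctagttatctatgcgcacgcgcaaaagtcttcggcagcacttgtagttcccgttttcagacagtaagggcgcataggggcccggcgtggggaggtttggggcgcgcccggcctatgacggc
The HEXIM1 window holds 1 TATAAA close to the start, 2 CCAAT and 2 GGGCGG matches. The upstream LARP7 window holds 2 CCAAT matches and 1 GGGCGG match, and the downstream one 1 GGGCGG match alone. Over the same 250 bases before the start in all 35116 entries of the table, 10.7% hold TATAAA, 32% CCAAT and 42.6% GGGCGG. Of the 15 windows of the 10 members, 1 holds TATAAA, that of HEXIM1, 5 hold CCAAT and 11 hold GGGCGG. The windows are not all distinct. Those of SUPT5H overlap and share their GGGCGG match, which is counted for both, and the CDK7 windows and the CCNC windows also overlap. CpG is a dinucleotide common at promoters that carry H3 lysine 4 trimethylation, and its median over the same 250 bases of all entries is 11. There are 31 CpG in the HEXIM1 window, 23 and 20 in those of LARP7, and 37 in that of CDK9. Of the 15 member windows, 14 hold at least that median. The median was taken with no filter on expression, whereas the members are all expressed here, so the sets are unlike. Nearer to it, 1 CCNC window holds 13 CpG and the CDK7 windows hold 14 and 17. A second CCNT1 window has 0. A match is a description of the letters and does not show binding.

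Before the members, the targeted transcript was examined as a check of the labels. SETD1A stood at 9.36, 11.3 and 10.7 TPM in sgSETD1A libraries, against 17.5, 17.5 and 18.1 TPM in sgEmpty libraries, and the groups did not overlap. Between 11857 and 11961 genes reached 1 TPM in sgSETD1A libraries and between 11769 and 11828 in sgEmpty libraries; sequencing depth is unknown, since TPM does not keep it. Replicate 1 of sgSETD1A (sgSETD1A rep1, as other libraries are named below) stood apart, with correlations of 0.9956 and 0.9954 to the other 2 libraries of its group, which correlated at 0.9977 with each other (log2(TPM + 1), across genes, which are not independent). Epithelial and luminal markers were abundant (8 genes summing to 16353 to 16870 TPM in sgSETD1A and 14370 to 15441 TPM in sgEmpty libraries), and 6 of the 8 rose and 0 fell (3 and 1 after median-ratio rescaling). Among all tested genes 28.0% were called higher and 13.5% lower. Of 9 immune markers, which summed to 1.66 to 2.33 TPM in sgSETD1A and 1.76 to 2.23 TPM in sgEmpty, CD3D and MS4A1 were listed at 0 in every library, and of 9 stromal and endothelial markers, which summed to 3.12 to 5.08 TPM in sgSETD1A and 3.43 to 4.35 TPM in sgEmpty, DCN was. Their part in the results was not tested.

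Differences were tested with limma on log2(TPM + 1) over the 11885 genes with a mean of at least 1 TPM, with p-values adjusted over all of them by the Benjamini-Hochberg method and a threshold of 0.05. Every change below is on the log2(TPM + 1) scale, sgSETD1A minus sgEmpty, unless a level in TPM is named. Of the members, 3 rose and 1 fell, against a background of 28.0% of tested genes called higher and 13.5% called lower, and 41.5% called in either direction, so 4 of 10 members called is near the background. The groups did not overlap in 7 of the 10 members, against 53.7% of tested genes. The members' median change was 0.062 log2, beside 0.073 for all tested genes. After median-ratio rescaling, which removes that offset, 1 member rose and 2 fell (background 14.9% and 19.6%). After quantile normalization 1 rose and 1 fell (18.0% and 17.3%).

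**Figure D1:**
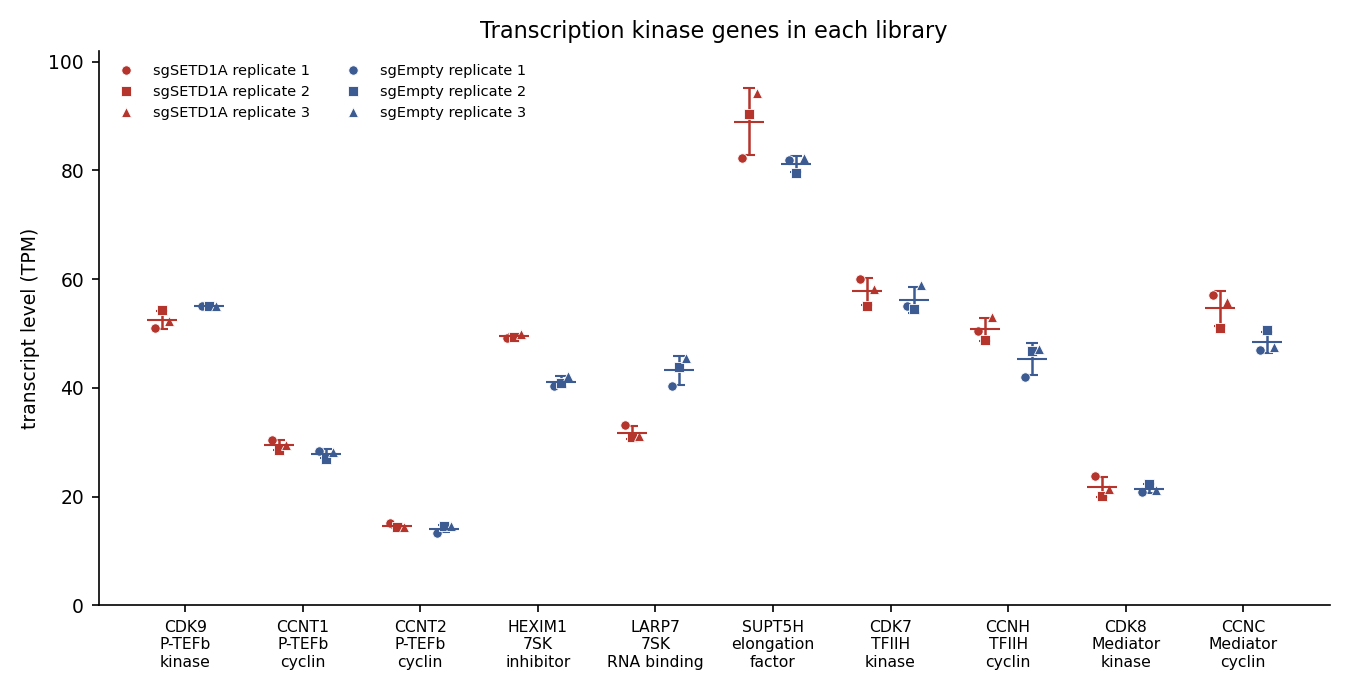
Transcript level (TPM, y axis) of the 10 genes in each library, sgSETD1A in red and sgEmpty in blue, with a symbol for each replicate, and the mean and 1 SD over 3 libraries as bars. HEXIM1 is higher and LARP7 lower in every sgSETD1A library than in any sgEmpty library, while CCNT2, CDK7 and CDK8 overlap between groups.

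HEXIM1, which binds 7SK RNA and then holds CDK9 inactive, had 49.2, 49.3 and 49.99 TPM in sgSETD1A libraries, against 40.4, 40.8 and 42.3 TPM in sgEmpty libraries. The sgSETD1A values lay within 1 TPM of one another and all above the highest sgEmpty value. The mean was 49.5 ± 0.43 TPM in sgSETD1A and 41.2 ± 0.96 TPM in sgEmpty (SD, n = 3 each), 20.2% higher. The change of 0.26 log2 (SE 0.041; 95% interval 0.17 to 0.35; limma adjusted p = 0.0011) stood 0.19 log2 above the median change of all tested genes. In size the change equalled or exceeded that of 74.8% of tested genes, and it was called in all 14 alternatives.

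LARP7, a La-related protein that protects 7SK RNA from decay, had 33.1, 31.0 and 31.1 TPM in sgSETD1A libraries, against 40.4, 43.8 and 45.6 TPM in sgEmpty libraries. The sgSETD1A libraries were all low and the groups were separated by more than the range within either. The mean was 31.7 ± 1.19 TPM in sgSETD1A and 43.2 ± 2.64 TPM in sgEmpty (SD, n = 3 each), and fell by 26.6%. The change of -0.43 log2 (SE 0.055; 95% interval -0.56 to -0.31; limma adjusted p = 3.65e-04) was larger in size than that of 91.1% of tested genes, and was called in all 14 alternatives. RefSeq lists 4 numbered pseudogenes of LARP7, and the microRNA host gene MIR302CHG overlaps it. The sources used here do not say how such reads were assigned, so the value carries that uncertainty.

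Because the 2 transcripts moved in opposite directions, their ratio within a library differed more than either level. There were 1.49, 1.59 and 1.61 HEXIM1 transcripts per LARP7 transcript (ratio of TPM) in sgSETD1A libraries, against 1.00, 0.93 and 0.93 in sgEmpty libraries. In sgEmpty cells the 2 transcripts were thus near equal in level, and in sgSETD1A cells HEXIM1 was the more abundant in every library. The ratio averaged 1.56 ± 0.067 in sgSETD1A and 0.954 ± 0.041 in sgEmpty (SD, n = 3 each), 1.64-fold higher. A ratio within a library does not change when all values of that library are multiplied by a common factor, as in median-ratio rescaling. Quantile normalization can change it.

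The kinase CDK9 had 50.9, 54.3 and 52.4 TPM in sgSETD1A libraries, against 55.1, 55.1 and 54.98 TPM in sgEmpty libraries. All 3 sgSETD1A values were below the sgEmpty values, which lay unusually close together, by a margin smaller than the range within the sgSETD1A group. The change was -0.067 log2 (95% interval -0.16 to 0.024; limma adjusted p = 0.212). After median-ratio rescaling it was called lower, at -0.14 log2 (limma adjusted p = 0.022), and in no other alternative.

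The cyclins that partner CDK9 gave no call. CCNT1 had 30.4, 28.5 and 29.6 TPM in sgSETD1A libraries, against 28.5, 27.0 and 28.2 TPM in sgEmpty libraries, with the groups nearly touching (0.079 log2; 95% interval -0.030 to 0.19; limma adjusted p = 0.22). CCNT2 had 15.1, 14.4 and 14.4 TPM in sgSETD1A libraries, against 13.3, 14.5 and 14.5 TPM in sgEmpty libraries, which overlap (0.045 log2; 95% interval -0.087 to 0.18; limma adjusted p = 0.568). CCNT1 was the more abundant cyclin, at 1.99 to 2.05 times CCNT2 in sgSETD1A libraries and 1.85 to 2.14 times in sgEmpty libraries. The intervals for both cyclins exclude changes of the size seen for LARP7.

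Set against CDK9 in the same library, HEXIM1 and LARP7 separated. HEXIM1 stood at 0.966, 0.909 and 0.955 of the CDK9 level in sgSETD1A libraries, against 0.734, 0.741 and 0.768 in sgEmpty libraries. LARP7 stood at 0.650, 0.571 and 0.594 of CDK9 in sgSETD1A libraries, against 0.733, 0.794 and 0.829 in sgEmpty libraries. Neither ratio overlapped between groups. The summed T-type cyclins stood at 0.893, 0.790 and 0.839 of CDK9 in sgSETD1A libraries and 0.758, 0.753 and 0.777 in sgEmpty libraries, which also did not overlap but came within the spread of the sgSETD1A group. With HEXIM2 added to HEXIM1, the ratio to CDK9 was 1.14, 1.08 and 1.14 in sgSETD1A libraries. In sgEmpty libraries that ratio was 1.01, 1.00 and 1.09, so the groups overlapped.

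**Figure D2:**
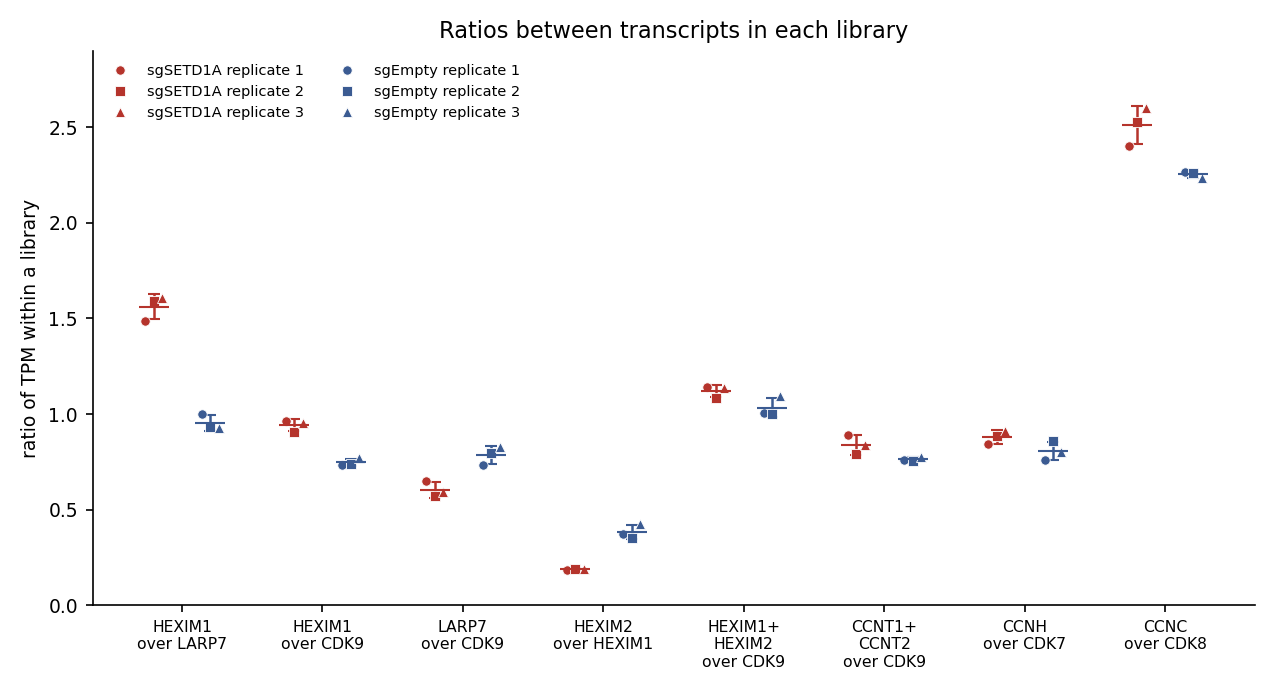
Ratios of TPM between transcripts of the same library (y axis) for 8 pairs or sums, sgSETD1A in red and sgEmpty in blue, with a symbol for each replicate, and the mean and 1 SD over 3 libraries. HEXIM1 over LARP7 separates at 1.49 to 1.61 in sgSETD1A and 0.93 to 1.00 in sgEmpty, and HEXIM2 over HEXIM1 at 0.183 to 0.192 and 0.352 to 0.423. HEXIM1+HEXIM2 over CDK9 and CCNH over CDK7 overlap between groups.

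HEXIM2 and MEPCE, which also act on 7SK RNA, were lower. Of the hnRNP proteins that bind it, named here after their values were seen, HNRNPA2B1 rose by 0.15 log2 (limma adjusted p = 0.0181) and SYNCRIP by 0.11 log2 (adjusted p = 0.0375), and HNRNPA1 (-0.03 log2) and HNRNPR (-0.08 log2) were not called. After either rescaling neither HNRNPA2B1 (limma adjusted p = 0.208 with median ratios) nor SYNCRIP (adjusted p = 0.591) was called. HNRNPA1 was called lower after both (-0.11 log2 with median ratios; limma adjusted p = 0.0235) and HNRNPR with median ratios alone (-0.16 log2; adjusted p = 0.0218). HEXIM2, a paralog of HEXIM1 that can take its place on 7SK RNA, had 9.001, 9.49 and 9.46 TPM in sgSETD1A libraries, against 15.1, 14.4 and 17.9 TPM in sgEmpty libraries. The groups were far apart, and the change of -0.70 log2 (SE 0.08; limma adjusted p = 2.10e-04) was larger than that of any of the 10 members. MEPCE, which caps 7SK RNA, had 115.4, 125.5 and 122.3 TPM in sgSETD1A libraries, against 140.6, 136.5 and 136.7 TPM in sgEmpty libraries. Its groups did not overlap either, and it fell by 0.19 log2 (SE 0.04; limma adjusted p = 0.00524). Both were called in all 14 alternatives.

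HEXIM1 and HEXIM2 are next to each other among the protein-coding genes of chromosome 17 in RefSeq (GRCh38.p14), and 1 lncRNA, HEXIM2-AS1, overlaps both. The neighbours moved in opposite directions: HEXIM2 stood at 0.183, 0.192 and 0.189 of HEXIM1 in sgSETD1A libraries, against 0.373, 0.352 and 0.423 in sgEmpty libraries. Their summed level was 58.2, 58.8 and 59.5 TPM in sgSETD1A libraries and 55.5, 55.2 and 60.1 TPM in sgEmpty libraries, so the sums overlapped. The library kit keeps strand, but the sources used here do not say that strand was used in counting, and reads from HEXIM2-AS1 cannot be told apart without it.

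SUPT5H, the SPT5 subunit of DSIF and a substrate of P-TEFb, was the most abundant member. It had 82.3, 90.5 and 94.2 TPM in sgSETD1A libraries, against 82.0, 79.5 and 82.2 TPM in sgEmpty libraries. Replicate 1 of sgSETD1A lay just above the sgEmpty range and the other 2 well above it. The change of 0.13 log2 (95% interval 0.013 to 0.24) was not called (limma adjusted p = 0.0709). Without sgSETD1A rep1 it was called, at 0.18 log2 (limma adjusted p = 0.00566), so 1 library decided this call.

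CDK7, the TFIIH kinase, had 60.1, 55.1 and 58.2 TPM in sgSETD1A libraries, against 55.1, 54.5 and 58.97 TPM in sgEmpty libraries, with overlapping groups (0.041 log2; 95% interval -0.069 to 0.15; limma adjusted p = 0.531). Its cyclin CCNH had 50.5, 48.8 and 53.0 TPM in sgSETD1A libraries, against 42.0, 46.7 and 47.2 TPM in sgEmpty libraries, without overlap. The CCNH change of 0.16 log2 (SE 0.056; limma adjusted p = 0.0424) stood 0.089 log2 above the median of all genes. It was called in 6 of 14 alternatives. It was not called after median-ratio rescaling (0.085 log2; limma adjusted p = 0.272), after quantile normalization, without a filter or a trend, or without sgEmpty rep1, sgEmpty rep2, sgSETD1A rep1 or sgSETD1A rep3. The gene RASA1 overlaps CCNH in RefSeq and averaged 43.4 TPM in sgSETD1A and 41.3 TPM in sgEmpty, so part of the CCNH reads may be uncertain. The gene CCDC125 overlaps CDK7 and averaged 15.4 TPM in sgSETD1A and 15.8 TPM in sgEmpty. Numbered pseudogenes are also listed for CDK7, CCNH, CDK8 and CCNT2, so the same uncertainty applies to them. In RefSeq the transcribed pseudogene TSTD3 overlaps CCNC and the snoRNA SNORD175 overlaps SUPT5H, so reads of these members may be uncertain too. The CCNH to CDK7 ratio was 0.841, 0.885 and 0.911 in sgSETD1A libraries, against 0.763, 0.858 and 0.801 in sgEmpty libraries, which overlap.

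CDK8, the Mediator kinase, had 23.8, 20.2 and 21.5 TPM in sgSETD1A libraries, against 20.8, 22.4 and 21.2 TPM in sgEmpty libraries. These overlap fully (0.018 log2; 95% interval -0.13 to 0.17; limma adjusted p = 0.842), and the sign of the change differed with the scaling. Its cyclin CCNC had 57.1, 50.9 and 55.8 TPM in sgSETD1A libraries, against 47.0, 50.6 and 47.5 TPM in sgEmpty libraries, where the lowest sgSETD1A value was just above the highest sgEmpty value. The CCNC change of 0.17 log2 (SE 0.054; limma adjusted p = 0.0299) was called in 5 of 14 alternatives. It was not called after median-ratio rescaling (0.093 log2; limma adjusted p = 0.231), after quantile normalization, without a filter or a trend, with a replicate block, or without sgEmpty rep1, sgEmpty rep3, sgSETD1A rep1 or sgSETD1A rep3. In the ratio to CDK8, CCNC stood at 2.40, 2.53 and 2.6004 in sgSETD1A libraries, against 2.26, 2.26 and 2.23 in sgEmpty libraries, without overlap.

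**Figure D3:**
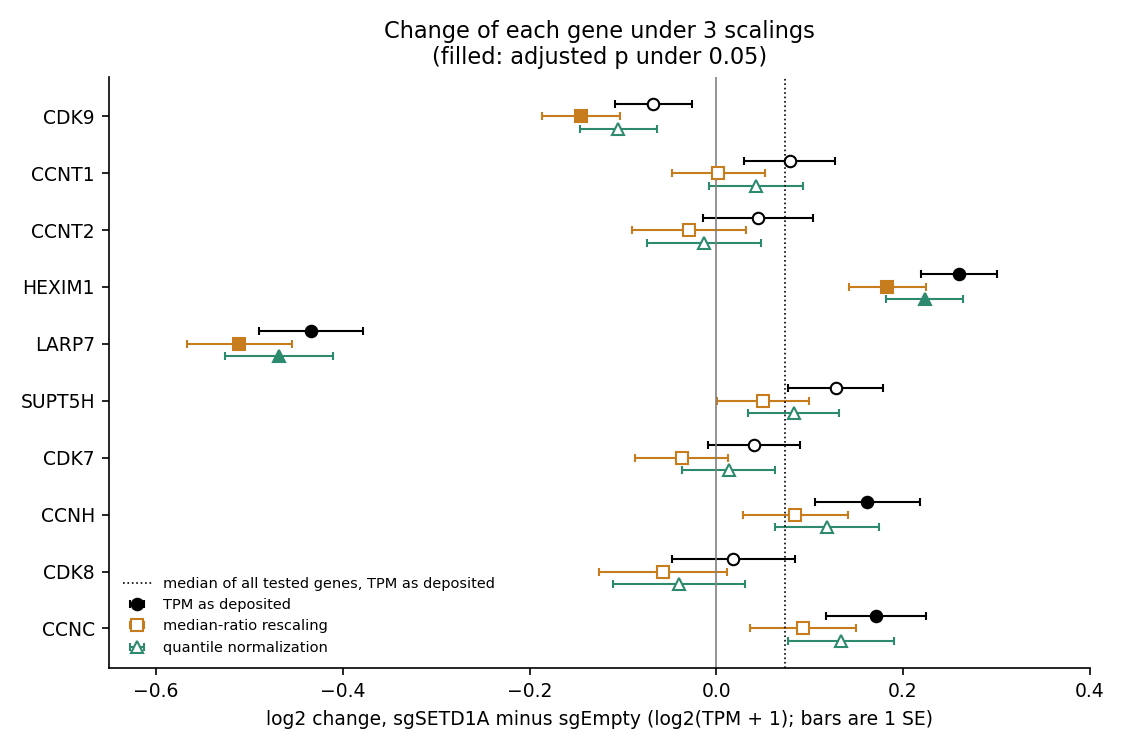
Change of each member (x axis, log2(TPM + 1), sgSETD1A minus sgEmpty) with TPM as deposited and after the other 2 scalings; bars are 1 SE and filled symbols have a limma adjusted p under 0.05. HEXIM1 and LARP7 are filled under all 3, CCNH and CCNC with TPM as deposited alone, and CDK9 after median-ratio rescaling alone.

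In level, SUPT5H stood above all other members in both groups, at 82.3 to 94.2 TPM in sgSETD1A and 79.5 to 82.2 TPM in sgEmpty libraries. In sgSETD1A libraries CDK7, CCNC, CDK9, CCNH and HEXIM1 followed in that order of means, each overlapping the next in range, and LARP7, CCNT1, CDK8 and CCNT2 came below, each separate from the next. In sgEmpty libraries the order after SUPT5H was CDK7, CDK9, CCNC, CCNH, LARP7, HEXIM1, CCNT1, CDK8 and CCNT2. There CDK7 overlapped CDK9, and CCNC, CCNH, LARP7 and HEXIM1 overlapped in a chain. LARP7 thus lay within the middle of the set in sgEmpty cells and below HEXIM1 with no overlap in sgSETD1A cells. The members' mean levels ran from the 39.8 percentile (CCNT2) to the 84.8 percentile (SUPT5H) of tested genes.

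By the Pearson correlation of log2(TPM + 1) over the 6 libraries, the genes most like HEXIM1 were PON2 (r = 0.9991), IFIT2 (0.9991) and PRPF6 (0.999). Those most like LARP7 were ARAP2 (0.9978), RPL7 (0.9971) and FPGT (0.9955). CCNH was most like TRPM7 (0.9916), HMGN1 (0.9911) and SYCE2 (0.9884), and CCNC most like DYNLL1 (0.9978), SSH1 (0.9938) and RAB13 (0.991). These are descriptions over 6 libraries that share a split into 2 groups, picked from 11885 genes.

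The remaining partners of these kinases were counted by complex. Beside every count stand the 28.0% of all tested genes called higher and 13.5% called lower, with a median of 0.073 log2. After median-ratio rescaling these shares were 14.9% and 19.6%, and after quantile normalization 18.0% and 17.3%. A count near these shares is not a result about the complex. Of 17 genes of P-TEFb and 7SK partners, members included, 8 rose and 3 fell; their median was 0.10 log2. SRSF2, a splicing factor that can release P-TEFb from 7SK, rose by 0.21 log2 and was called in all 14 alternatives, and JMJD6, a dioxygenase linked to the same step, rose by 0.22 log2 but was called in 8 of 14 alternatives: not after median-ratio rescaling (limma adjusted p = 0.0977) or quantile normalization (adjusted p = 0.0683), and in 2 of the 6 fits that leave out 1 library, not without sgEmpty rep2 or rep3 or sgSETD1A rep2 or rep3. With median-ratio rescaling 2 rose and 6 fell; quantile normalization gave 3 and 4. The higher count was 5 without sgEmpty rep1 or rep3, 3 without sgEmpty rep2 or sgSETD1A rep3, and 4 without sgSETD1A rep2.

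Of the 6 DSIF and NELF genes, 2 rose and 0 fell (median 0.098 log2): NELFCD, in the table as TH1L, at 441.7 ± 6.84 TPM in sgSETD1A and 390.3 ± 2.77 TPM in sgEmpty (SD, n = 3 each; 0.18 log2; limma adjusted p = 0.00105), and NELFE, in the table as RDBP (0.11 log2; limma adjusted p = 0.0453). NELFCD was called in all 14 alternatives, and NELFE was not called when any single library was left out. In the list 1 gene rose after either rescaling and when any library but sgSETD1A rep1 was left out. Of 10 genes of the super elongation complex, which carries P-TEFb to paused polymerase, 2 rose and 0 fell (median 0.17 log2). They were EAF1 at 0.27 log2 (limma adjusted p = 0.0012) and the scaffold AFF4 at 0.23 log2 (limma adjusted p = 0.00699; 0.0509 after median-ratio rescaling, where 1 gene rose). Of 11 genes of the PAF1 complex and elongation chaperones, 4 rose and 0 fell (median 0.12 log2), with CTR9 at 0.26, RTF1 at 0.24, SKIC8 (in the table as WDR61) at 0.20 and PAF1 at 0.14 log2, and 3 rose after either rescaling. Beside these lists, 28.0% of all tested genes were called higher and 13.5% lower, with a median of 0.073 log2.

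Of 10 TFIIH genes, 4 rose and 2 fell (median 0.082 log2), and 2 rose and 3 fell after either rescaling. For this list and the next, the share of all tested genes was 28.0% called higher and 13.5% lower. The largest change was in GTF2H5, the smallest subunit, which had 1.62, 1.78 and 1.89 TPM in sgSETD1A libraries, against 3.04, 3.48 and 3.28 TPM in sgEmpty libraries. It fell by 0.63 log2 (SE 0.093; limma adjusted p = 8.20e-04), and at so low a level the added 1 TPM understates the change. GTF2H3 also fell, by 0.25 log2, while the helicases ERCC2 and ERCC3 rose by 0.27 and 0.24 log2. Without sgEmpty rep1, sgEmpty rep2 or sgSETD1A rep3, 2 TFIIH genes rose. Of 7 genes of the Mediator kinase module, 2 rose and 1 fell (median 0.095 log2): beside CCNC these were MED12, which activates CDK8 (0.19 log2), and MED13L (-0.15 log2). After either rescaling 0 rose and 1 fell. Without sgEmpty rep1, sgEmpty rep3 or sgSETD1A rep3, 0 rose, and with any other single library left out 1 rose; 0 fell without sgEmpty rep2, sgEmpty rep3 or sgSETD1A rep3.

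Among 26 other Mediator genes 4 rose and 1 fell (median 0.062 log2), beside 28.0% of all tested genes called higher and 13.5% lower. MED18, a subunit of the head, had 13.9, 14.4 and 13.8 TPM in sgSETD1A libraries, against 19.9, 19.5 and 21.5 TPM in sgEmpty libraries, and fell by 0.50 log2 (SE 0.058; limma adjusted p = 2.05e-04). MED25, MED16 and MED4 rose by 0.24, 0.23 and 0.19 log2, none of them called after median-ratio rescaling, where 0 rose and 3 fell; quantile normalization gave 2 and 3. The higher count was 0 without sgEmpty rep2 and 1 without sgSETD1A rep3, and 2 fell without sgEmpty rep2, sgSETD1A rep2 or sgSETD1A rep3.

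CCNK, encoding cyclin K, had 98.5, 96.1 and 98.7 TPM in sgSETD1A libraries, against 86.6, 82.5 and 87.3 TPM in sgEmpty libraries, while its kinases CDK12 (0.092 log2; limma adjusted p = 0.211) and CDK13 (0.13 log2; limma adjusted p = 0.107) were not called. In the list of 8 genes of cyclin K and other CTD kinases 4 rose and 0 fell (median 0.17 log2), with CDK10 at 0.34, CCNL1 at 0.34 and CDK11B at 0.15 log2 beside CCNK. The share of all tested genes was 28.0% called higher and 13.5% lower. After median-ratio rescaling, or without sgEmpty rep1, sgEmpty rep2, sgSETD1A rep2 or sgSETD1A rep3, 1 gene rose, and 3 rose after quantile normalization; 6 rose without sgSETD1A rep1, in which CDK10 and CCNL1 were lowest of their group.

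**Figure D4:**
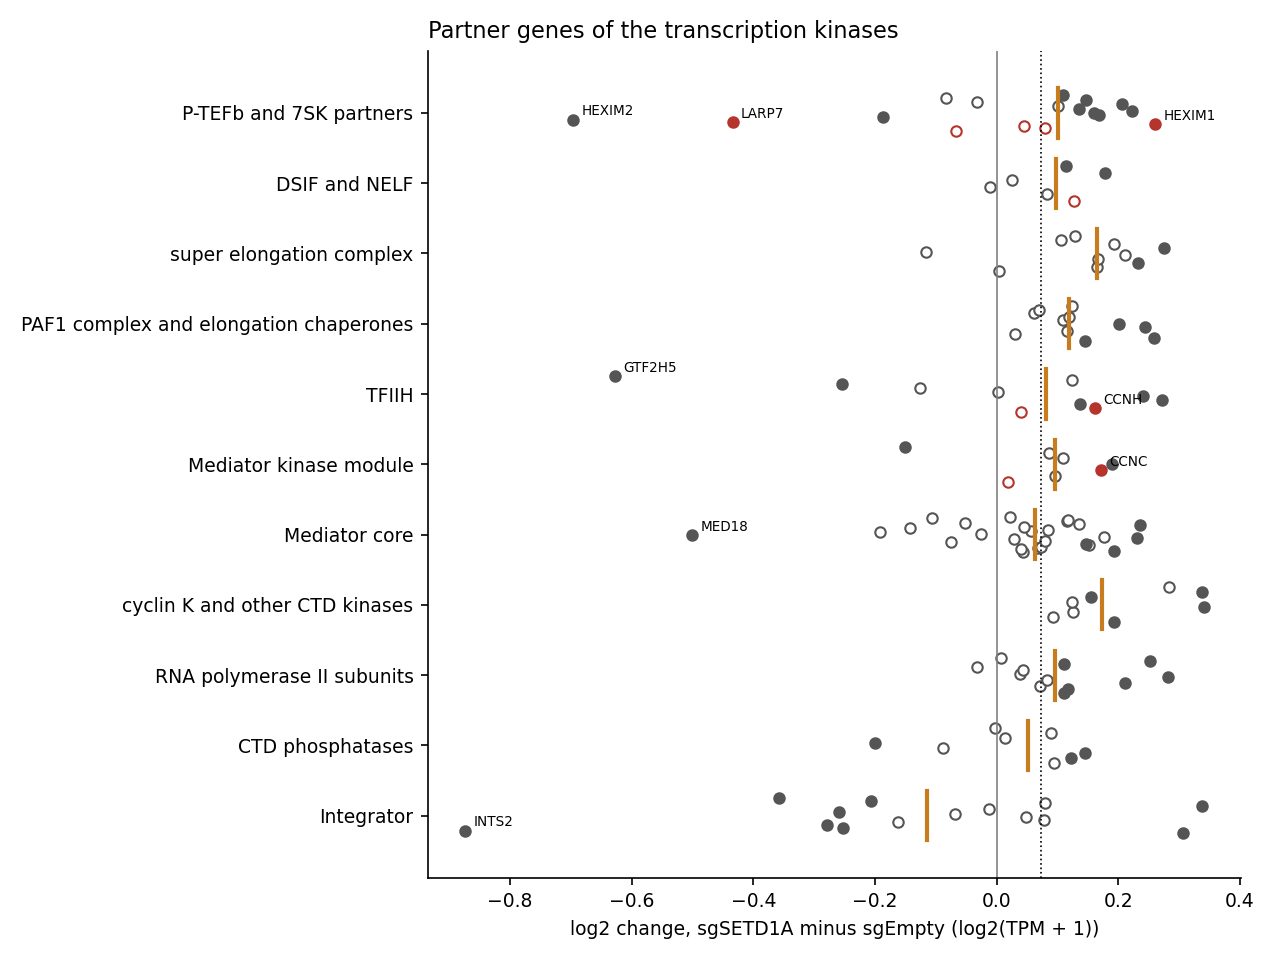
Change (x axis, log2(TPM + 1), sgSETD1A minus sgEmpty) of the tested genes in 11 lists of partner genes; red marks the 10 members, filled symbols have a limma adjusted p under 0.05, orange bars are list medians and the dotted line is the median of all tested genes. INTS2, HEXIM2, GTF2H5, MED18 and LARP7 lie farthest below, and all but the Integrator list have a median above 0. The median of all tested genes is itself 0.073 log2. The medians of Mediator core (0.062), CTD phosphatases (0.052) and Integrator lie below that.

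The substrate and the enzymes that reverse CTD phosphorylation completed the set. Again 28.0% of all tested genes were called higher and 13.5% lower, with a median of 0.073 log2. Of 12 RNA polymerase II subunit genes, 6 rose and 0 fell (median 0.096 log2), among them POLR2F at 0.28, POLR2K at 0.25, POLR2D at 0.21 and POLR2B at 0.12 log2. After median-ratio rescaling POLR2K alone was called, and 3 rose after quantile normalization and without sgEmpty rep2, sgSETD1A rep2 or sgSETD1A rep3. Of 8 CTD phosphatase genes, 2 rose (CTDSP1 at 0.14 and SSU72 at 0.12 log2) and 1 fell (CTDSPL at -0.20 log2), with a median of 0.052 log2. After either rescaling 0 rose and 2 fell. The higher count was 1 without sgEmpty rep1 or rep2 and 0 without sgEmpty rep3, sgSETD1A rep2 or sgSETD1A rep3, and 0 fell without sgEmpty rep1, sgEmpty rep2, sgSETD1A rep1 or sgSETD1A rep2.

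Integrator, a complex that cleaves nascent RNA and brings a phosphatase that opposes P-TEFb, was the list with the lowest median (-0.12 log2). Of its 14 genes 2 rose and 6 fell, beside 28.0% of all tested genes called higher and 13.5% lower. The numbers for Integrator were 2 and 8 under median-ratio rescaling, and 2 and 7 under quantile normalization. INTS2 had 18.2, 16.4 and 16.2 TPM in sgSETD1A libraries, against 31.5, 31.6 and 32.2 TPM in sgEmpty libraries, and fell by 0.87 log2 (SE 0.056; limma adjusted p = 8.75e-06). INTS14, in the table as C15orf44, fell by 0.36 log2, while INTS11, the endonuclease (in the table as CPSF3L), and INTS1 rose by 0.34 and 0.31 log2; these 4 genes were called in all 14 alternatives. The lower count was 3 without sgEmpty rep1 or rep3, and 4 without sgSETD1A rep2 or rep3.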

How the data were processed

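Transcript levels were TPM values deposited by the authors (a signal scaled to a common total in each library), in 1 column per library. Per the submitters' processing notes, the hg19 build was used with RSEM 1.3.1, STAR 2.6.0c and bcl2fastq 2.20.0, with no roles given. A row of column totals, which names no gene, was left out; it repeats 100% of the sum of the named genes. TPM keeps no depth, so no count test was run. Guide counts deposited by the authors for 5995 guides were searched by name, and 0 were against the members.

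Groups came from the sample titles. A linear model with a mean-variance trend (limma 3.58.1, R 4.3.3) was fitted on log2(TPM + 1) of the 11885 genes with a mean of at least 1 TPM, and adjusted p-values (Benjamini-Hochberg, 0.05) cover all of them; the fit was tested on simulated data. Ratios are of TPM within a library, with no test; those with HEXIM2 or MEPCE, and the HEXIM sum, were chosen after values were seen. Older symbols were matched through the RefSeq table (GRCh38.p14), from which promoter windows were also read. The pseudocount was changed to 0.1 and 5 and the mean TPM minimum to 5 or none; the other alternatives were 2 rescalings, no trend, a replicate block and leaving out each library. Members and lists were chosen with earlier results of these data known. A further immune marker is not reported here. Named genes were the members, SETD1A, CCNK, CDK12 and CDK13, up to 4 called genes per list with the largest change, and the 3 genes most like each called member.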

Additional observations from a re-analysis of the deposited data

How the results depend on the processing

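HEXIM1 (0.18 to 0.28 log2) and LARP7 (-0.51 to -0.39 log2) kept direction and call in 14 of 14 alternatives. Of the members, 3 rose with TPM as deposited, and 1 rose with no filter on low TPM, with median-ratio rescaling, with quantile normalization and in limma without trend, while 2 fell after median-ratio rescaling. With 1 library left out, 1 to 3 rose and 1 fell each time; 1 rose without sgEmpty rep1 and without sgSETD1A rep3. Over all genes, 3327 were called higher with TPM as deposited, against 1766 with median-ratio rescaling and 2142 with quantile normalization, and 1605 were called lower, against 2333 and 2056. With 1 library left out, 2361 to 3459 were higher and 1288 to 1616 lower. Uncalled changes near 0 turned sign: after median-ratio rescaling CCNT2 (-0.029), CDK7 (-0.037), CDK8 (-0.057), HMGN1 (-0.0044) and RAB13 (-0.021 log2), after quantile normalization CCNT2 (-0.013), CDK8 (-0.040), HMGN1 (-0.044) and RAB13 (-0.019 log2), and CDK8 also without sgEmpty rep1 (-0.0041) and without sgSETD1A rep1 (-0.043 log2), in a range of -0.043 to 0.070 with 1 library left out. Median-ratio rescaling by construction removes the median change of all tested genes. That median was 0.073 log2 with TPM as deposited, so the changes were lowered here. The cause of the other differences was not tested. Over 70 genes followed through the alternatives, 838 of 976 values kept direction and call, 125 lost the call, 2 gained it and 11 turned sign. These genes include epithelial markers that are not named here and leave out the hnRNP genes. Deviations of same-numbered libraries correlated weakly and with mixed sign (0.085, -0.104 and 0.169), and those of other pairs ranged from -0.210 to 0.139. Replicate numbers are therefore not taken as pairs. With a replicate block 2 members rose and 1 fell, and 3103 genes were higher and 1539 lower. Depth is unknown, and 3 libraries a group limit the precision.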

Other observations

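Among 24 early response genes, whose transcription is often limited by pause release, 6 rose and 6 fell and the median was -0.059 log2, against 28.0% of tested genes called higher and 13.5% lower. EGR1, an early growth response factor, had 41.4, 45.2 and 45.9 TPM in sgSETD1A libraries, against 61.6, 61.1 and 66.8 TPM in sgEmpty libraries (-0.51 log2; limma adjusted p = 1.44e-04). Its relative EGR3 changed by -0.55 log2 (limma adjusted p = 9.997e-04). KLF2 rose by 0.52 log2 and stood at 2.40 ± 0.31 TPM in sgSETD1A and 1.37 ± 0.23 TPM in sgEmpty (SD, n = 3 each), and DUSP1, a phosphatase of MAP kinases, rose by 0.32 log2. After median-ratio rescaling 5 rose and 9 fell, and 5 and 8 after quantile normalization. Without sgEmpty rep1, sgEmpty rep3 or sgSETD1A rep2, and in limma without trend, 3 fell.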
